A study of Rattus norvegicus with 6 samples.

Results

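The 37 genes described here are those that the rat cell carries on its mitochondrial genome, 13 for proteins, 2 for ribosomal RNAs (rRNAs) and 22 for transfer RNAs (tRNAs), out of 33300 genes in the deposited table. They were chosen by chromosome alone, as the genes placed on MT, and no expression level entered that rule. The group as a whole was picked with NAC against Control results of these libraries known, so the p-values below describe these genes and are no independent support. The 6 libraries came from cultured tendon stem/progenitor cells of the rat, labelled by their submitters as mesenchymal stem cells from tendon, with tenogenic differentiation entered for the genotype. In 3 libraries (NAC) the cells had been kept in F12 medium with 500 uM N-acetyl-L-cysteine, a cysteine donor and antioxidant, and in 3 libraries (Control) in F12 medium without it, in both cases for 7 days. Whether replicates are separate cultures or animals is not stated in the labels, and the p-values therefore reflect no more than how these samples varied, which may be technical.

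Mitochondrial DNA encodes core subunits of respiratory complexes I, III and IV and of the ATP synthase (complex V), together with the rRNAs and tRNAs that translate them inside the organelle, while all other subunits come from nuclear genes. Both strands are transcribed into long precursors, which are cut apart largely at the tRNAs that lie between the other genes, so the levels of mRNAs from one precursor depend on how long each persists as well as on transcription. Messenger RNAs of this genome have no introns and mostly carry poly(A) tails. In bulk RNA, fewer mitochondrial genomes per cell and fewer transcripts per genome cannot be told apart, nor can a change in the kinds of cells present.

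Levels are given as FPKM, reads per kilobase of gene length scaled to depth, as the authors deposited them. Read numbers recovered from these values summed to 13624097 to 14941949 in NAC libraries and 12487215 to 14079556 in Control libraries. The deposited scaling departed from those sums by a factor of 0.909 to 0.925 in NAC libraries and 1.02 to 1.04 in Control libraries, so log2 fold changes were computed both as deposited and rescaled to library totals; over all 12733 tested genes the log2 fold change had a median of -0.0063 as deposited and -0.16 on library totals. The 10 most abundant genes took 15.7 ± 0.264% of reads in NAC and 12.6 ± 0.201% in Control (SD, n = 3 each), and the part of this in the change of scale was not tested. Replicate libraries differed by more than counting noise, most of all in the pairs with Control 2. All 12 tendon and mesenchymal markers reached a mean of 1 FPKM, against 1 of 6 leukocyte, 0 of 4 endothelial, 0 of 4 epithelial, 2 of 5 skeletal muscle and 3 of 4 pericyte markers; Ptprc, Cd3e, Cdh5, Krt5 and Krt14 were at 0 in every library. The summed tendon and mesenchymal markers were 15452 to 16141 FPKM in NAC and 10264 to 10600.2 FPKM in Control, without overlap. As deposited, 5 of the 12 rose and 0 fell (limma), where 6.08% of all tested genes rose and 2.72% fell. At an unadjusted p under 0.05 as deposited (limma), 8 were higher and 0 lower, and voom called 5 higher and 0 lower. On library totals 4 of the 12 rose and 1 fell (limma), where 3.67% of all tested genes rose and 29.2% fell. The marker that fell was Mkx (log2 fold change -0.52, limma adjusted p = 0.0481). At an unadjusted p under 0.05 on library totals (limma), 5 were higher and 2 lower. Col1a1, a chain of type I collagen, averaged 5453 ± 253 FPKM with NAC and 2731 ± 124 FPKM in Control (SD, n = 3 each). Its rise was the largest of the 12, of which 10 had a log2 fold change above 0 as deposited. Scx and Mkx were lower as deposited, and neither passed (limma adjusted p = 0.519 and 0.192). Scx averaged 11.6 ± 0.700 FPKM with NAC and 12.5 ± 1.30 FPKM in Control. Mkx averaged 3.90 ± 1.07 FPKM with NAC and 5.28 ± 0.394 FPKM in Control. The summed muscle markers were 7.18 to 8.30 FPKM in NAC and 6.64 to 7.07 FPKM in Control. The part of either marker group in the results was not tested.

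Most mitochondrial mRNAs and both rRNAs were higher with NAC. Of the 13 mRNAs, 10 rose and 0 fell as deposited at an adjusted p under 0.05 (limma on log2(FPKM + 1), adjusted over all tested genes), where 6.08% of all tested genes rose and 2.72% fell. On library totals 9 of the 13 rose and 0 fell, where 3.67% of all tested genes rose and 29.2% fell. No mRNA fell at an unadjusted p under 0.05 under the deposited scaling, nor by limma's voom with TMM factors, which called 10 higher. The groups did not overlap, with NAC above, for 11 of the 13 mRNAs as deposited, against 16.7% of all tested genes. The median log2 fold change of the mRNAs was 0.49 as deposited (0.10 to 0.69) and 0.31 on library totals (-0.076 to 0.51).

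**Figure D1:**
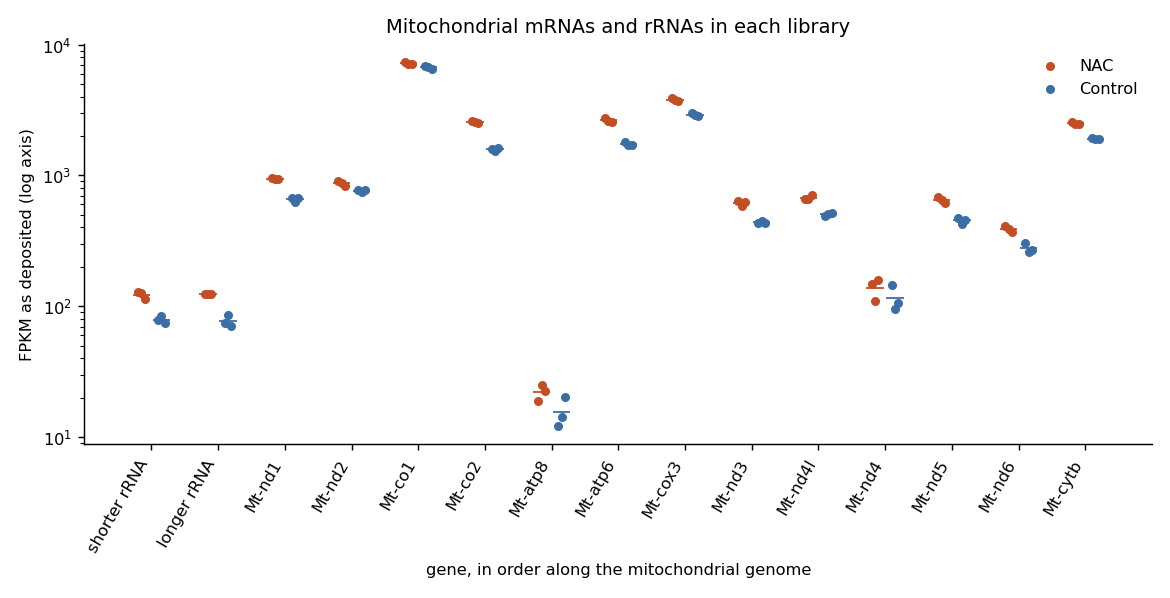
FPKM as deposited (log axis) of the 13 mitochondrial mRNAs and 2 rRNAs in order along the genome, with 1 point per library, NAC left of Control, and a line at each mean of 3 libraries. Mt-co1 lies at the top in both groups, Mt-atp8 at the bottom, and the points of both groups overlap only for Mt-nd4 and Mt-atp8.

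Complex IV (cytochrome c oxidase) held the mRNA with the largest rise and, as deposited, also the mRNA that changed least, which on library totals was Mt-nd2. Mt-co2 (positions 7006 to 7689, plus strand) encodes the subunit whose copper centre takes electrons from cytochrome c. It measured 2592, 2563 and 2502 FPKM in the 3 NAC libraries, against 1603, 1545 and 1607 FPKM in the 3 Control libraries. The groups lay far apart relative to the spread within each, a 1.61-fold ratio of means. Its log2 fold change was 0.69 ± 0.037 as deposited (SE, n = 3 each, limma adjusted p = 4.06e-04) and 0.51 on library totals (adjusted p = 0.00184).

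Mt-cox3 (8599 to 9382, plus strand), for the third mitochondrially encoded core subunit, measured 3903, 3784 and 3692 FPKM with NAC, against 2997, 2905 and 2831 FPKM in Control. Every NAC library was above every Control library. The log2 fold change was 0.38 ± 0.042 as deposited (limma adjusted p = 0.00391) and 0.21 on library totals (adjusted p = 0.0120). The call was lost when genes of low level were left in the test (adjusted p = 0.069).

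Mt-co1 (5323 to 6867, plus strand) encodes the subunit that holds the site where oxygen is reduced, and had the highest mean FPKM of all 33300 genes. It measured 7335, 7144 and 7089.97 FPKM with NAC, against 6843, 6748 and 6552 FPKM in Control, so NAC was above without overlap. Rescaled to library totals, the values were 6693, 6497 and 6557 with NAC, against 7105, 6880 and 6830 in Control, so NAC was below without overlap. The log2 fold change was 0.10 ± 0.040 as deposited (limma adjusted p = 0.179) and -0.076 on library totals (adjusted p = 0.163), and neither passed the threshold. The direction for Mt-co1 thus depends on the scaling, which for the other mitochondrial mRNAs it did not.

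**Figure D2:**
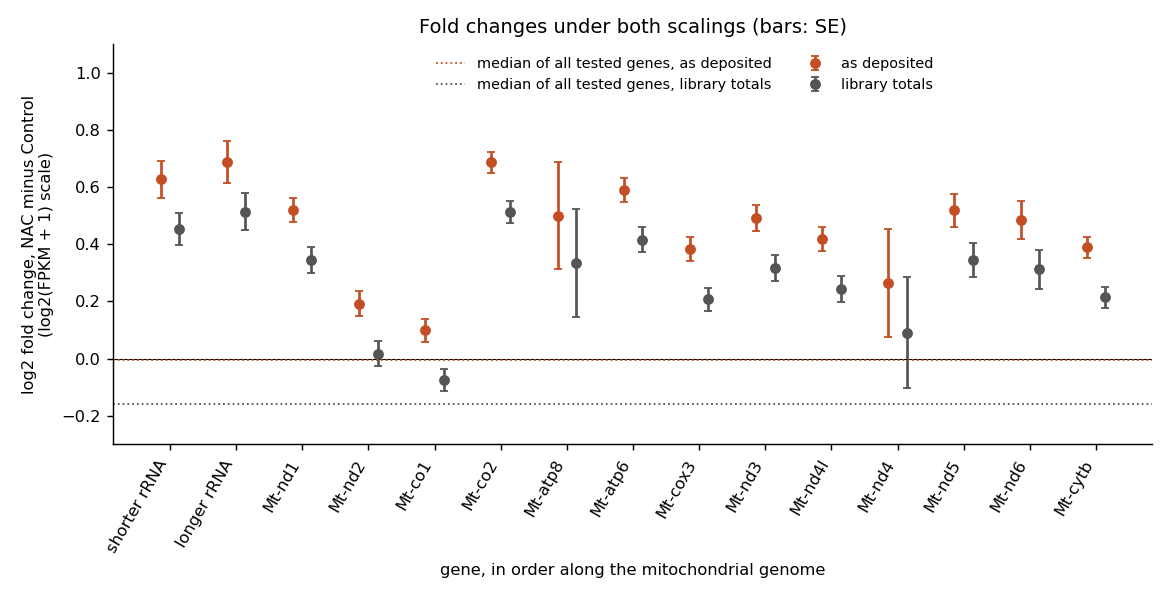
Log2 fold change, NAC minus Control on the log2(FPKM + 1) scale, of each mitochondrial mRNA and rRNA as deposited and on library totals, with bars of 1 SE from limma; dotted lines mark the median of all 12733 tested genes under each scaling. Mt-co2 and both rRNAs lie highest, Mt-co1 and Mt-nd2 lowest, and Mt-nd4 and Mt-atp8 have the widest bars.

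Complex V is represented by Mt-atp6 and Mt-atp8, whose reading frames share 43 bases. Mt-atp6 (7919 to 8599, plus strand), part of the proton channel, measured 2726, 2605 and 2570.2 FPKM with NAC, against 1812, 1712 and 1722 FPKM in Control. The groups were well apart, and the log2 fold change was 0.59 ± 0.043 as deposited (limma adjusted p = 7.85e-04) and 0.42 on library totals (adjusted p = 0.00349). Mt-atp8 (7758 to 7961, plus strand), for a small subunit of the membrane sector, measured 18.8, 24.9 and 22.6 FPKM with NAC, against 12.1, 14.2 and 20.4 FPKM in Control. These rest on 52, 69 and 58 reads with NAC and 34, 37 and 61 reads in Control, and the groups overlapped. Its log2 fold change of 0.50 ± 0.19 did not pass (limma adjusted p = 0.150), nor did the 0.33 on library totals (adjusted p = 0.208).

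The level of Mt-atp8 was 0.0084 of that of Mt-atp6 with NAC and 0.0089 in Control, with overlapping groups, although both are read from one transcript in mammals. The sources used here do not give how reads that fall on both genes were counted, and the level of Mt-atp8 is uncertain. The cause of the low value was not tested.

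Complex III has 1 mitochondrial gene, Mt-cytb (14136 to 15278, plus strand), for cytochrome b, which carries the quinone sites. It measured 2559, 2470.02 and 2469.5 FPKM with NAC, against 1942, 1892 and 1890.2 FPKM in Control. The replicates were tight and the groups apart, with a log2 fold change of 0.39 ± 0.036 as deposited (limma adjusted p = 0.00238) and 0.21 on library totals (adjusted p = 0.00902). Its level relative to Mt-cox3 was 0.659 ± 0.0086 with NAC and 0.656 ± 0.010 in Control (SD, n = 3 each), and these values overlapped.

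Complex I (NADH dehydrogenase) takes 7 subunits from this genome, of which 6 rose as deposited and 5 on library totals. Mt-nd1 (2740 to 3694, plus strand), a subunit next to the quinone site, measured 951, 946 and 939 FPKM with NAC, against 676, 626 and 676 FPKM in Control. The groups did not overlap, and the log2 fold change was 0.52 ± 0.041 as deposited (limma adjusted p = 0.00119) and 0.35 on library totals (adjusted p = 0.00541). Mt-nd2 (3904 to 4942, plus strand), a proton-pumping subunit and the next mRNA along the genome, measured 907, 879 and 831 FPKM with NAC, against 775, 742 and 773 FPKM in Control. It was higher by 0.19 ± 0.044 on the log2 scale as deposited (limma adjusted p = 0.0446). On library totals its change was 0.018 (adjusted p = 0.780), so this call, unlike that of its neighbour, rests on the scaling. It was also lost when any 1 library other than NAC 3 was left out (limma adjusted p = 0.071 to 0.144).

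Mt-nd3 (9451 to 9798, plus strand) measured 637, 583 and 629.7 FPKM with NAC, against 431, 448 and 435 FPKM in Control, a log2 fold change of 0.49 ± 0.044 (limma adjusted p = 0.00215). Mt-nd4l (9870 to 10166, plus strand) measured 661, 658 and 703 FPKM with NAC, against 487, 508 and 517 FPKM in Control, a log2 fold change of 0.42 ± 0.042 (limma adjusted p = 0.00302). Both encode small membrane subunits, both groups of values were apart for each, and both changes passed on library totals as well (0.32 and 0.24). Mt-nd5 (11736 to 13565, plus strand), a proton-pumping subunit and the longest gene of this genome, measured 687, 647 and 613 FPKM with NAC, against 475, 427 and 456 FPKM in Control. Its log2 fold change was 0.52 ± 0.058 as deposited (limma adjusted p = 0.00396) and 0.34 on library totals, again without overlap.

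Mt-nd4 (10160 to 11537, plus strand), the remaining proton-pumping subunit, measured 149, 109.7 and 158 FPKM with NAC, against 146, 94.7 and 107 FPKM in Control. The groups overlapped, and the log2 fold change of 0.26 ± 0.19 did not pass (limma adjusted p = 0.426), nor did the 0.091 on library totals (adjusted p = 0.741). Replicates varied by 18.4% in NAC and 23.1% in Control (coefficient of variation), where read counting alone gives 1.99% and 2.13%. Given the total of mitochondrial mRNA reads, its variation within groups was 90.2 times that of counting (chi-square per degree of freedom), against 19.4 for Mt-nd5 and 1.11 to 10.3 for the other mitochondrial mRNAs and rRNAs. Mt-nd4 shares 7 bases with Mt-nd4l, and in mammals both are read from one transcript, yet it stood at 0.205 of the Mt-nd4l level with NAC and 0.231 in Control. The cause was not tested, and the level of Mt-nd4 is uncertain.

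Mt-nd6 (13543 to 14061) is the only protein gene on the minus strand, and encodes a membrane subunit of complex I. It measured 413, 387 and 370.4 FPKM with NAC, against 303, 262 and 271 FPKM in Control. The groups did not overlap, with a log2 fold change of 0.49 ± 0.067 as deposited (limma adjusted p = 0.00933) and 0.31 on library totals (adjusted p = 0.0167). Relative to Mt-nd5, its neighbour on the plus strand, with which it shares 23 bases, Mt-nd6 stood at 0.601 ± 0.0029 with NAC and 0.615 ± 0.022 in Control (SD, n = 3 each). These ratios overlapped between the groups. The sources used here do not give the strand setting of the counting. Reads from the opposite strand over Mt-nd6 and over the minus-strand tRNA genes cannot be told apart from their own.

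The rRNA genes have placeholder names in the table and are told apart here by length. The shorter one (ENSRNOG00000030478, positions 68 to 1025, plus strand, 958 bases) measured 128, 126 and 114 FPKM with NAC, against 78.0, 84.5 and 74.5 FPKM in Control. The longer one (ENSRNOG00000043866, positions 1094 to 2664, plus strand, 1571 bases) measured 124, 124 and 124 FPKM with NAC, against 74.4, 86.0 and 70.4 FPKM in Control. Both rose without overlap, by 0.63 ± 0.064 for the shorter (limma adjusted p = 0.00312) and 0.69 ± 0.072 for the longer (limma adjusted p = 0.00345) on the log2 scale. On library totals the changes were 0.45 and 0.51, and both still passed.

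The library kit was one for mRNA, and rRNA made up 0.0286 ± 4.61e-04% of reads with NAC and 0.0203 ± 0.00157% in Control (SD, n = 3 each). These levels describe the rRNA that was captured, and how far this follows the rRNA in the cells was not tested.

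tRNA genes were hardly covered. Of the 22, 6 were at 0 in every library, 12 had at most 3 reads in every library, and 5 had more than 3 reads in all 6 libraries. The 11 that reached a mean of 1 FPKM were tested, and 1 rose and 0 fell as deposited. Among all tested genes 6.08% rose and 2.72% fell. The tRNA gene that rose (ENSRNOG00000032609, positions 5081 to 5152, minus strand) had 73, 78 and 63 reads with NAC, against 34, 42 and 41 reads in Control. In FPKM it measured 74.6, 79.7 and 69.4 with NAC, against 34.3, 45.8 and 38.8 in Control, with no overlap. The log2 fold change was 0.90 ± 0.11 as deposited (limma adjusted p = 0.00485) and 0.73 on library totals, the largest among the mitochondrial genes with more than 3 reads in every library.

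The tRNA gene with most reads (ENSRNOG00000029145, positions 15348 to 15415, minus strand) is the last annotated gene of the MT coordinates. It measured 174, 241 and 223 FPKM with NAC, against 204, 183 and 159 FPKM in Control. The groups overlapped, and its log2 fold change of 0.22 ± 0.14 did not pass (limma adjusted p = 0.357). The other 3 with more than 3 reads in every library had 5 to 15 reads each, at 5185 to 5252 and 5256 to 5321 on the minus strand and 7693 to 7756 on the plus strand. Their log2 fold changes were 0.47, 0.095 and 0.32, with limma adjusted p-values of 0.414, 0.670 and 0.342.

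A further tRNA gene at 2665 to 2739 on the plus strand had 5, 1 and 5 reads with NAC and 1, 0 and 0 reads in Control. It passed on library totals (limma adjusted p = 0.0426) but not as deposited (limma adjusted p = 0.0798), and at these counts no fold is given. Over all 22 tRNA genes, 0.0022 ± 2.39e-04% of reads fell on them with NAC and 0.0018 ± 8.86e-05% in Control (SD, n = 3 each), and these values overlapped.

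The order of the mRNA levels changed with NAC at a few places. In both groups Mt-co1 stood first and Mt-cox3 second, and Mt-nd4 and Mt-atp8 came last. With NAC, Mt-atp6 and Mt-co2 stood above Mt-cytb in 3 of 3 libraries, while in Control Mt-cytb stood above both in 3 of 3. Likewise Mt-nd1 stood above Mt-nd2 in all 3 NAC libraries and below it in all 3 Control libraries. With NAC, the ranges of Mt-atp6 and Mt-co2, of Mt-co2 and Mt-cytb, of Mt-nd4l and Mt-nd5, and of Mt-nd5 and Mt-nd3 overlapped between libraries. Within each of the 3 NAC libraries Mt-atp6 was above Mt-co2, and Mt-co2 above Mt-cytb, while the order of Mt-nd4l and Mt-nd5, and of Mt-nd5 and Mt-nd3, held in 2 of 3. In Control only Mt-nd5 and Mt-nd3 overlapped, with Mt-nd5 above in 2 of 3 libraries.

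Shares within the mitochondrial mRNAs do not depend on the scaling of a library. Mt-co1 held 31.2, 31.3 and 31.4% of the summed FPKM of the 13 mRNAs with NAC, against 37.0, 37.6 and 36.7% in Control. Its share was 5.81 percentage points lower with NAC, without overlap. Mt-co2 held 11.1 ± 0.119% with NAC and 8.76 ± 0.208% in Control, and Mt-atp6 held 11.5 ± 0.107% with NAC and 9.66 ± 0.123% in Control (SD, n = 3 each). Mt-nd2 was the other mRNA with a lower share and no overlap, at 3.80 ± 0.102% with NAC and 4.22 ± 0.0998% in Control.

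Of the rest, Mt-cox3, Mt-cytb, Mt-nd1, Mt-nd3, Mt-nd5 and Mt-nd6 held higher shares without overlap, and Mt-nd4l, Mt-nd4 and Mt-atp8 overlapped. By complex, complex IV held 58.9 ± 0.226% with NAC and 62.0 ± 0.471% in Control. Complex V held 11.6 ± 0.0945% with NAC and 9.75 ± 0.114% in Control, complex I 18.7 ± 0.169% with NAC and 17.7 ± 0.387% in Control. For each share without overlap the two-sided exact permutation p was 0.10, the smallest that 3 against 3 allows, and 0.131 after Benjamini-Hochberg adjustment over 21 shares compared.

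**Figure D3:**
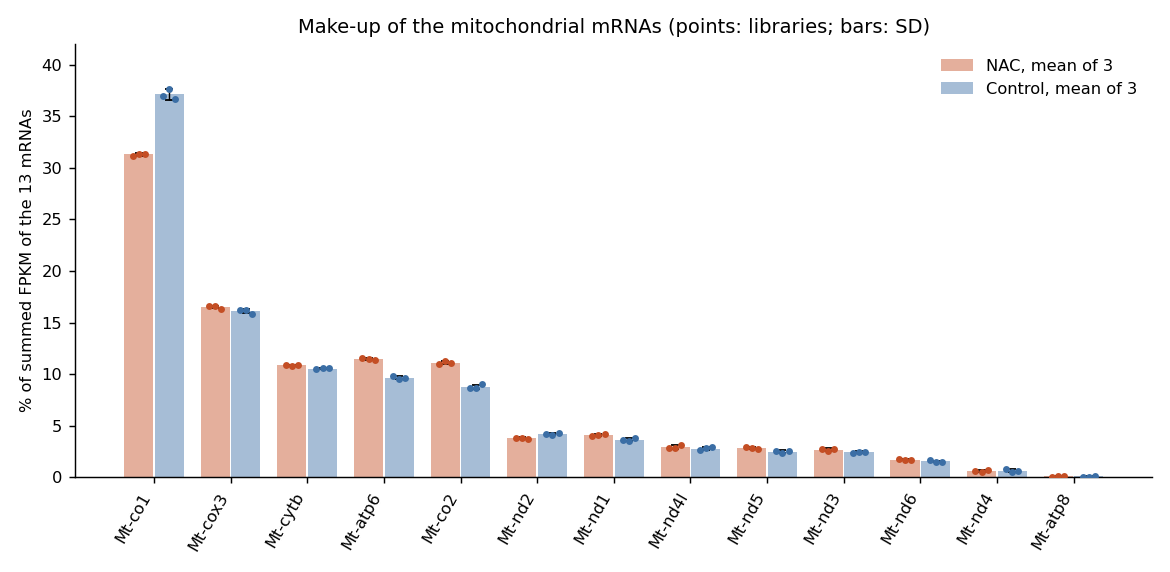
Share of each mRNA in the summed FPKM of the 13 mitochondrial mRNAs (%), as the mean of 3 libraries with SD bars and 1 point per library, NAC left of Control. Mt-co1 is at 31.3% with NAC and 37.1% in Control, and the gap is taken up mainly by Mt-co2 and Mt-atp6.

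Ratios between genes show the same shift and were chosen after the levels were seen, so they are given without a test. Mt-co2 stood at 0.355 ± 0.0033 of Mt-co1 with NAC and 0.236 ± 0.0083 in Control, Mt-atp6 at 0.366 ± 0.0048 of Mt-co1 with NAC and 0.260 ± 0.0059 in Control (SD, n = 3 each). Mt-nd1 stood at 1.08 ± 0.042 of Mt-nd2 with NAC and 0.863 ± 0.016 in Control. All of these are plus-strand genes, and the groups did not overlap in any of these ratios. Across the 13 mRNAs the log2 fold change had a Spearman rho of -0.082 with start position, -0.20 with mean FPKM and -0.37 with gene length, given as a description over genes of the same libraries.

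In all, mitochondrial genes took 2.30, 2.22 and 2.24% of reads with NAC, against 2.14, 2.04 and 2.07% in Control. The groups did not overlap, a difference of 0.168 percentage points (two-sided exact permutation p = 0.10, the smallest possible with n = 3 each). Mt-co1 alone held 45.1 ± 0.191% of these reads with NAC and 51.4 ± 0.537% in Control. Without Mt-co1, the mitochondrial mRNAs took 1.21 ± 0.0269% of all reads with NAC and 0.992 ± 0.0341% in Control (SD, n = 3 each), a ratio of 1.22.

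Nuclear genes for subunits of the respiratory complexes, complex II included, were counted in the same way. Of 71 tested, 2 rose and 1 fell as deposited, where 6.08% of all tested genes rose and 2.72% fell, with a median log2 fold change of 0.025, against 0.49 for the mitochondrial mRNAs. On library totals 0 rose and 20 fell, where 29.2% of all tested genes fell, with a median of -0.15 beside -0.16 for all genes. At an unadjusted p under 0.05 in limma, 0 nuclear subunits were higher and 39 lower on library totals, and 4 higher and 3 lower as deposited. By voom with TMM factors 1 rose and 1 fell.

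Ndufs8, an iron-sulphur subunit of complex I, averaged 43.2 ± 1.66 FPKM with NAC and 36.9 ± 0.827 FPKM in Control (SD, n = 3 each; log2 fold change 0.22, limma adjusted p = 0.0301). Atp5f1d, the delta subunit of the ATP synthase, averaged 59.6 ± 2.60 FPKM with NAC and 50.2 ± 2.85 FPKM in Control (log2 fold change 0.24, limma adjusted p = 0.0431). Ndufb7, an accessory subunit of complex I, fell to 62.7 ± 1.11 FPKM with NAC, against 72.2 ± 2.28 FPKM in Control (log2 fold change -0.20, limma adjusted p = 0.0277). Neither rise passed on library totals, where Ndufb7 was still lower (log2 fold change -0.37, limma adjusted p = 0.00296). As deposited, Ndufs8 and Atp5f1d lost the call when any 1 library other than Control 2 was left out (limma adjusted p = 0.0537 to 0.137), and Ndufb7 when Control 1 or any 1 NAC library was (limma adjusted p = 0.0819 to 0.0956).

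Of the 12 nuclear subunits of complex IV, 0 passed as deposited (limma, with 0 also at an unadjusted p under 0.05 and by voom). On library totals 2 of them fell, where 29.2% of all tested genes fell. Cox6a1 averaged 338 ± 13.8 FPKM with NAC and 338 ± 13.6 FPKM in Control, and Cox4i1 294.5 ± 3.73 FPKM with NAC and 285 ± 8.40 FPKM in Control (SD, n = 3 each). Their limma adjusted p-values were 0.975 and 0.441 as deposited, and on library totals both passed as lower (log2 fold changes -0.17 and -0.13, adjusted p = 0.0321 and 0.0263). For complex III, Uqcrh averaged 103 ± 7.59 FPKM with NAC and 87.8 ± 9.62 FPKM in Control, and Uqcrfs1 71.5 ± 3.22 FPKM with NAC and 69.4 ± 0.964 FPKM in Control. Neither passed under either scaling (limma adjusted p = 0.154 and 0.595 as deposited). Complex II has no mitochondrially encoded subunit; its Sdhc and Sdha did not pass as deposited (limma adjusted p = 0.438 and 0.982), and Sdha passed as lower on library totals (log2 fold change -0.17, adjusted p = 0.0257).

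The mean FPKM of the mitochondrial over that of the nuclear subunits of a complex does not depend on library scaling. For complex I this ratio was 12.6 ± 0.423 with NAC and 8.97 ± 0.190 in Control (SD, n = 3 each). For complex V it was 11.9 ± 0.582 with NAC and 8.16 ± 0.600 in Control, for complex III 45.9 ± 2.22 with NAC and 37.4 ± 1.41 in Control (SD, n = 3 each). For complex IV it was 30.2 ± 1.52 with NAC and 25.3 ± 1.37 in Control, or 21.3 ± 1.16 with NAC and 15.2 ± 0.926 in Control without Mt-co1. In none of the 6 ratios compared, that over all complexes included, did the groups overlap (two-sided exact permutation p = 0.10 each, the smallest possible, and 0.10 adjusted).

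One nuclear subunit stood apart within Control and was picked out after its values were seen. Ndufa1, an accessory subunit of complex I, measured 4.84, 3.11 and 3.35 FPKM with NAC, against 146, 1.84 and 99.8 FPKM in Control, with overlapping groups (limma adjusted p = 0.245). Without it the ratio for complex I was 12.2 ± 0.418 with NAC and 9.16 ± 0.485 in Control (SD, n = 3 each), still without overlap.

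**Figure D4:**
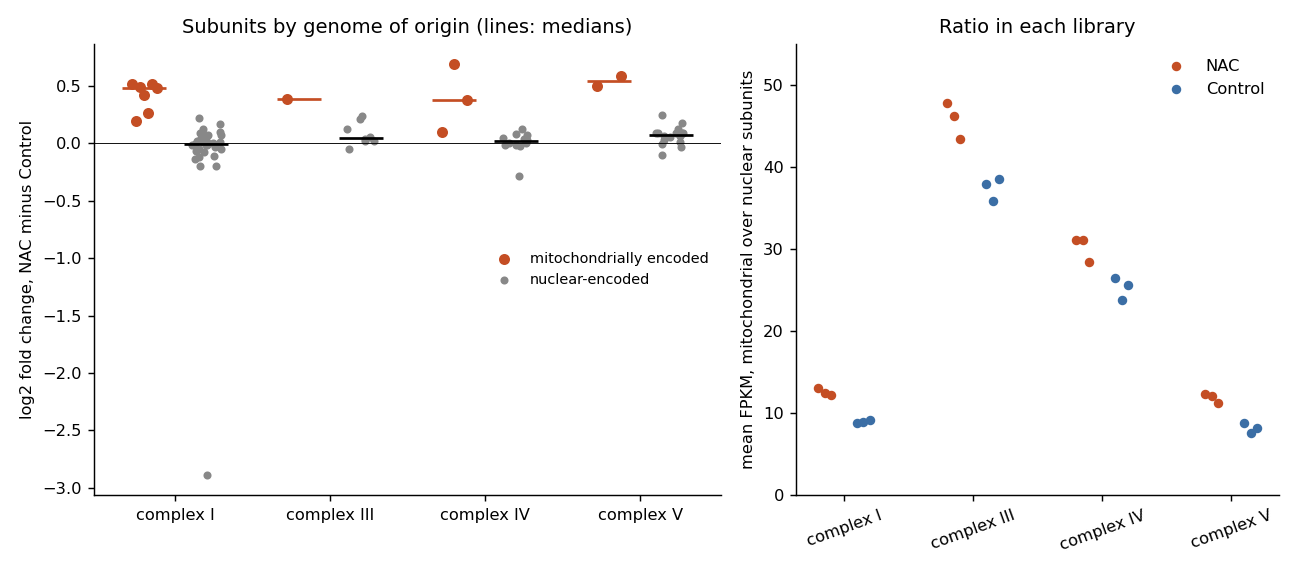
Left, log2 fold change (NAC minus Control, as deposited) of mitochondrially encoded and nuclear-encoded subunits by complex, with a line at each median; right, mean FPKM of mitochondrial over nuclear subunits in each of the 3 NAC and 3 Control libraries. The medians of the nuclear subunits run from -0.0033 for complex I to 0.077 for complex V, Ndufa1 lies at -2.89, and every ratio is higher in the NAC libraries.

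Genes that copy, transcribe, process and modify mitochondrial nucleic acids gave 1 call as deposited. Over these lists and the regulators of mitochondrial biogenesis, 63 genes were tested and 1 rose and 0 fell as deposited (limma), where 6.08% of all tested genes rose and 2.72% fell, with a median log2 fold change of -0.069; at an unadjusted p under 0.05, 3 were higher and 9 lower, and voom with TMM factors called 1 higher and 1 lower. On library totals 0 rose and 23 fell, where 29.2% of all tested genes fell, with a median of -0.24 beside -0.16 for all genes. The one that rose as deposited was Fastk, a mitochondrial RNA-binding protein that in human and mouse cells is needed for the mRNA of the ND6 subunit. It averaged 61.8 ± 1.74 FPKM with NAC and 55.2 ± 0.0744 FPKM in Control (SD, n = 3 each; log2 fold change 0.16, limma adjusted p = 0.0434), and its log2 fold change on library totals was -0.012. The call was lost when any 1 library was left out (limma adjusted p = 0.0613 to 0.138).

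Polrmt, the mitochondrial RNA polymerase, measured 5.15, 5.15 and 5.79 FPKM with NAC, against 6.28, 6.17 and 6.28 FPKM in Control. NAC lay below without overlap, but the log2 fold change of -0.19 ± 0.067 did not pass as deposited (limma adjusted p = 0.132), and it did on library totals (log2 fold change -0.34, limma adjusted p = 0.0148). Tfam, which packages mitochondrial DNA and starts transcription, averaged 15.2 ± 0.903 FPKM with NAC and 15.7 ± 1.04 FPKM in Control (SD, n = 3 each; limma adjusted p = 0.747). On library totals Tfam passed as lower (log2 fold change -0.20, limma adjusted p = 0.0484). Of the 9 genes of the transcription list, 0 passed as deposited (at an unadjusted p under 0.05, 1 was higher and 4 lower; voom called 1 lower), and 6 fell on library totals, where 29.2% of all tested genes fell. Mrpl12, a ribosomal protein of mitochondria that is also reported to bind the polymerase, averaged 18.1 ± 0.733 FPKM with NAC and 15.3 ± 1.48 FPKM in Control (limma adjusted p = 0.105).

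Lrpprc, which protects mitochondrial mRNAs from decay, averaged 12.9 ± 1.03 FPKM with NAC and 13.3 ± 0.335 FPKM in Control (SD, n = 3 each; limma adjusted p = 0.768). Polg, the mitochondrial DNA polymerase, averaged 13.4 ± 0.575 FPKM with NAC and 13.5 ± 0.415 FPKM in Control, and Ssbp1, which binds single-stranded mitochondrial DNA, 14.9 ± 1.07 FPKM with NAC and 15.8 ± 1.28 FPKM in Control. None of these passed as deposited; on library totals Polg (log2 fold change -0.18, limma adjusted p = 0.0350) and Ssbp1 (log2 fold change -0.24, limma adjusted p = 0.0380) passed as lower, and Lrpprc did not. Of the 10 replication genes tested, 0 passed as deposited and 4 fell on library totals, where 29.2% of all tested genes fell. Trub2 and Rpusd3, both pseudouridine synthase family members of the organelle, had limma adjusted p-values of 0.887 and 0.836. Of 16 RNA modification genes 0 passed as deposited and 4 fell on library totals, beside the same 29.2% of all tested genes.

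Regulators of mitochondrial biogenesis gave 0 calls among 7 tested as deposited, and 2 fell on library totals, where 29.2% of all tested genes fell. Nrf1, a transcription factor for nuclear mitochondrial genes, averaged 6.02 ± 0.391 FPKM with NAC and 6.001 ± 0.415 FPKM in Control (SD, n = 3 each; limma adjusted p = 0.981). Esrra and Yy1, also transcription factors on this list, had limma adjusted p-values of 0.673 and 0.567 as deposited. Yy1 passed as lower on library totals (log2 fold change -0.24, limma adjusted p = 0.0405). Ppargc1a, the coactivator of this programme, was at 0.491 ± 0.155 FPKM with NAC and 0.527 ± 0.146 FPKM in Control, too low to be tested. Among 14 proteins often used as a measure of mitochondrial content, 0 passed as deposited (limma; 0 higher and 1 lower at an unadjusted p under 0.05, 0 by voom) and 11 fell on library totals, where 29.2% of all tested genes fell. One of them, Tomm20 of the outer membrane import machinery, averaged 104 ± 1.65 FPKM with NAC and 108 ± 9.01 FPKM in Control (SD, n = 3 each; limma adjusted p = 0.658), and passed as lower on library totals (log2 fold change -0.22, adjusted p = 0.0248).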

How the data were processed

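RNA was extracted with an RNeasy mini plus kit and sequenced from SMARTer mRNA libraries, per the labels' protocols. The authors deposited 1 table of FPKM values and gene length for 33300 genes. The sources used here do not give aligner, counter, strand setting or the build of the positions, since the builds in the submitters' processing notes (GRCm38, mm10) are of mouse and the gene identifiers of rat. The columns headed NAC name their samples, and those headed N were taken as Control by elimination. FPKM times gene length came out as whole reads for 100% of values (tolerance 0.01), and these reads gave library totals. Read counts and the floor of 3 reads allow for counting error only, while replicate libraries differed by more than that. Those genes with a mean of at least 1 FPKM were tested with limma 3.58.1 in R 4.3.3 on log2(FPKM + 1), with an intensity trend and group as sole term, two-sided, and Benjamini-Hochberg adjustment over 12733 genes at 0.05. The procedure was tested on simulated data. Shares and ratios used exact permutation tests. All mitochondrial protein and rRNA genes were named whatever their result, with Polrmt, Tfam, Lrpprc, Ppargc1a and Nrf1. Of the tRNA genes, those with more than 3 reads in every library or called under either scaling were described, and the others only counted. From each nuclear list up to 3 called genes were named, or, where none was called, the 2 most abundant. Of 204 list entries 25 matched by an older name and 14 had no entry. The members and lists were chosen with earlier results of these data known. Alternatives were other scalings, filters, pseudocounts, no trend, a replicate block and leaving out each library. Python 3.11.15, numpy 2.4.6, pandas 2.3.3 and matplotlib 3.10.9 were used.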

Additional observations from a re-analysis of the deposited data

How the results depend on the processing

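Of 195 pairs of an mRNA or rRNA gene with one of 13 alternative settings, 184 kept direction and side of the threshold, 10 lost the call and 1 reversed (Mt-co1 on library totals, -0.076). Of the 10, 9 were Mt-nd2, with adjusted p-values of 0.071 to 0.780, and 1 was Mt-cox3 without the filter. Genes called higher in all numbered 774, against 467 on library totals, 466 with a replicate block and 264 to 859 without 1 library; genes called lower numbered 346, against 207 without the filter, 206 without trend, 3722 on library totals, 568 with TMM and voom, 110 with the block and 51 to 347 without 1 library. Over the 147 tested genes of the nuclear lists 3 were called higher and 1 lower, where 6.08% of all tested genes rose and 2.72% fell. Those called higher numbered 0 without trend, on library totals and with the block, and 0 to 3 without 1 library. Those called lower numbered 2 at a pseudocount of 0.1 and with TMM and voom, 0 with the block and 0 to 3 without 1 library. On library totals 53 of the 147 were called lower, where 29.2% of all tested genes fell. Replicate numbers did not pair the samples (correlations of 0.063, 0.059 and -0.050 between same-numbered libraries), so the block is an alternative only. The median of the 13 mRNAs was 0.31 on library totals and 0.43 to 0.48 without 1 library. The mitochondrial share differed by 0.689 points as a share of summed FPKM, and by 0.144 to 0.198 points of reads without 1 library. The Mt-co1 share differed by -6.20 points in reads, and by -6.02 to -5.54 without 1 library.

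Log2 fold changes that reversed on library totals were the nuclear subunit median (-0.15), Fastk (-0.012), Sdhc (-0.11), Uqcrfs1 (-0.13), Cox4i1 (-0.13), Cox6a1 (-0.17), Nrf1 (-0.15) and the tRNA gene at 5256 to 5321 (-0.061); Cox6a1 was -3.22e-04 with TMM and voom. Without 1 library the nuclear median ran from -0.0055 to 0.048, that tRNA gene from -0.0021 to 0.21, Tfam from -0.088 to 0.0017, Trub2 from -0.073 to 0.054, Rpusd3 from -0.11 to 0.038, Esrra from -0.18 to 0.028, Sdha from -0.027 to 0.021, Cox6a1 from -0.029 to 0.036, Tomm20 from -0.10 to 0.016, Lrpprc from -0.093 to 0.011 and Nrf1 from -0.036 to 0.052. The share of Mt-atp8 ran from -5.29e-04 to 0.024 points and that of Mt-nd4 from -0.090 to 0.040 points. The causes were not tested. Voom was run on the recovered reads. Other models for read counts were not run, since the deposited unit is FPKM. Among the tRNA genes, 12 had at most 3 reads in every library, and the cause of this low cover was not tested.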
